A study of Mus musculus with 3 samples.

Results

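The cells described here are fibroblasts of the mouse knee synovium that carried transcripts of Acan, which codes for the cartilage proteoglycan aggrecan, and of Col11a1, which codes for a chain of the cartilage collagen type XI. They were selected on raw counts of unique molecular identifiers (UMIs, 1 per captured transcript), as fibroblast barcodes with at least 3 UMIs of Acan, at least 3 UMIs of Col11a1 and fewer than 5 UMIs of Col2a1, which codes for the main collagen of hyaline cartilage. The rule found 1564 cells among 15917 fibroblasts in 3 libraries, of which 0 were in the control library, 1534 in the library made 1 week after joint surgery and 30 in the library made 2 months after it. The working label called them chondrogenic-like fibroblasts. Their chondrocyte markers outside the rule had a far lower sum than in fibroblast barcodes with 5 or more Col2a1 UMIs, which the rule left out. Against all other 1-week fibroblasts, 3 of 25 cartilage matrix genes were at least 2-fold higher and 5 lower, beside 1.42% and 6.41% of all genes. Without the left-out barcodes among the others, 16 of 24 were higher and 1 lower, beside 1.64% and 6.44% of all genes. Tendon genes were high against the other fibroblasts. In the left-out barcodes the tenocyte markers summed higher still, mostly through Fmod, while Scx and Tnmd were lower there, as described below. The cells are named here by the genes of the rule, as Acan and Col11a1 fibroblasts.

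Fibroblasts make the collagen and proteoglycan matrix of connective tissues. Cartilage cells work under the transcription factor SOX9 and deposit type II, IX and XI collagens with aggrecan, whereas tendon and ligament cells work under scleraxis (Scx) and deposit type I collagen with tenomodulin and small leucine-rich proteoglycans. In the joint, a lining layer of fibroblasts secretes lubricin (Prg4) into the synovial fluid, and the tissue beneath it holds Pi16-positive progenitor-like fibroblasts. Surgical destabilisation of the medial meniscus (DMM) is a mouse model of osteoarthritis, in which the synovium thickens and cartilage-like outgrowths can form at the joint margin.

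All mice were wild type (wt in the labels). The control mice were 2 months old, and the operated mice had DMM at 2 months of age and were sampled 1 week or 2 months later. Synovium with fat pad from 5 to 10 mice was pooled for each library, treated first with trypsin (0.25%, 30 min) and second with type I collagenase (300 U/mL, 30 min). Live cells freed by the collagenase were sorted and loaded for droplet 3' RNA sequencing. The 2-month group was therefore older than the control group at harvest, and whether mice were sham-operated, their sex and the dates of library preparation are not given in the sources used here. Each condition was 1 library, so no difference has a replicate check and no p-value is given. Intervals are exact 95% intervals for the counting of UMIs or cells, and the variation from mouse to mouse is not in them.

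The libraries held 9003, 13986 and 10799 barcodes with 96782789, 179561680 and 159333121 UMIs at control, 1 week and 2 months, of which 8099, 12316 and 9782 passed a minimum of 500 genes and a limit of 10% mitochondrial UMIs. A fibroblast was a passing barcode with at least 0.2% of UMIs from Col1a2, Col3a1 and Dcn together, no UMI of the leukocyte gene Ptprc or the endothelial gene Cdh5, and at most 1 UMI of the mural genes Higd1b and Myh11 together, which left 4223, 5915 and 5779 fibroblasts. Barcode sequences were shared between libraries in 28 to 33 cases per pair, and among passing barcodes 4 Acan and Col11a1 fibroblasts of the 1-week library had a sequence that also occurred in the control and 1 a sequence that also occurred at 2 months. Leaving out the shared barcodes left 197 and 888 genes at least 2-fold higher and lower, against 197 and 889 with them.

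The cells made up 25.9% (24.8 to 27.1%) of the 1-week fibroblasts and 0.519% (0.351 to 0.740%) of the 2-month fibroblasts. The control count of 0 of 4223 allows a share of up to 0.0873%. The 1-week library held 98.1% of the cells, so what belongs to the cells and what belongs to that library, its pool of mice and its preparation cannot be told apart across time. At 1 week the cells had a median of 18596 UMIs and 4188 genes, against 14632 UMIs and 3719 genes in the other 4381 fibroblasts. Mitochondrial UMIs had medians of 3.92% and 3.64%. A rule that asks for UMIs favours deep barcodes. With every cell thinned to 5000 UMIs before the selection the 1-week share was 10.4% and the 2-month share 0.0894%. The fibroblast gate was also applied to the thinned counts and then held 6180 cells at 1 week and 5590 at 2 months. The thinned shares are therefore not of the same fibroblasts.

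**Figure D1:**
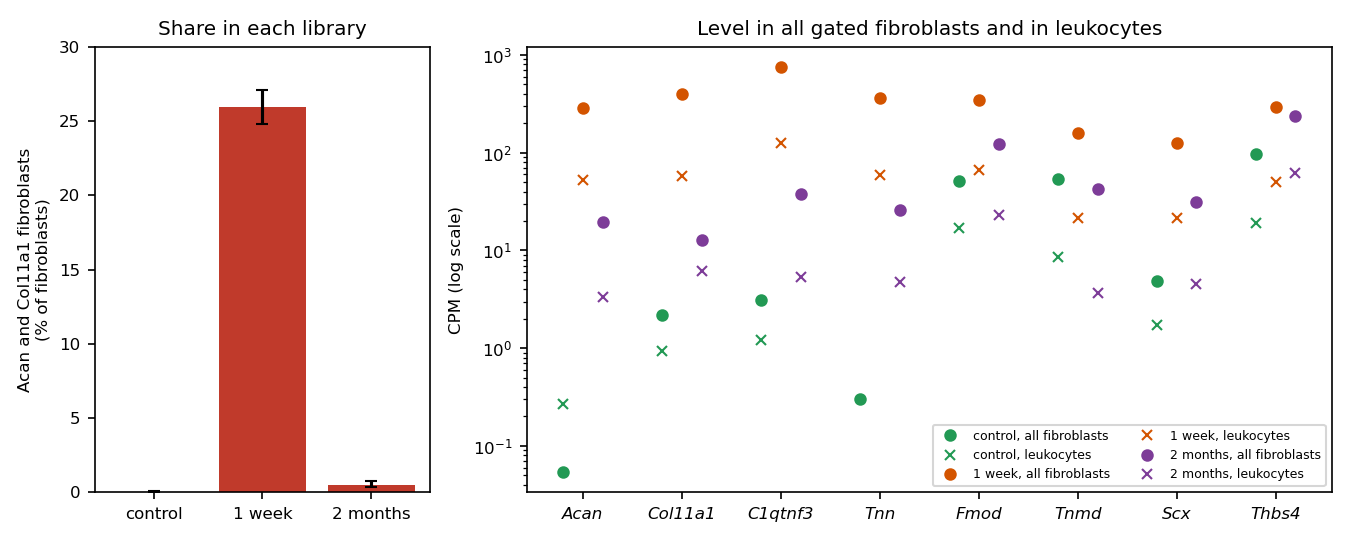
The left panel shows the Acan and Col11a1 fibroblasts as a percentage of all fibroblasts in each library, with exact 95% intervals. The right panel shows CPM (log axis) of 8 genes in all fibroblasts (circles) and in leukocytes (crosses) of each library, with the control leukocytes at 0 for Tnn not drawn. The share is 0% at control, 25.9% at 1 week and 0.519% at 2 months, and Acan in all fibroblasts is at 0.0539, 289 and 19.7 CPM.

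Over all fibroblasts of a library, Acan was at 0.0539 CPM (the gene's UMIs scaled to the UMIs of all genes in the summed cells) among control cells, 289 among 1-week cells and 19.7 among 2-month cells. Col11a1 was at 2.17, 396 and 12.9 CPM in the same order. The control and 2-month libraries were both far below the 1-week library for these genes of the rule. C1qtnf3, which codes for a secreted C1q and TNF related protein, was at 3.14, 748 and 38.1 CPM, and Tnn, the gene of the matrix glycoprotein tenascin-W, was at 0.305, 364 and 25.9 CPM. Fmod, which codes for fibromodulin, a small leucine-rich proteoglycan that binds collagen fibrils, had a higher control level and was at 51.2, 349 and 122 CPM. Tnmd (tenomodulin, a membrane protein of tendon cells) was at 53.7, 158 and 42.5 CPM, so its control and 2-month levels lay close together. In a bulk sum, fewer cells with a transcript and less transcript per cell cannot be told apart.

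Transcripts of these genes were also found in barcodes of other cell types. At 1 week Acan was at 52.6 CPM in leukocytes, defined by at least 2 UMIs of Ptprc and none of Cdh5, and at 40.1 CPM in endothelial cells, which should lack it, against 706 CPM in the selected fibroblasts. Col11a1 was at 899 CPM in the selected fibroblasts and 57.2 in leukocytes. In the other fibroblasts, Acan was at 102 CPM and Col11a1 at 171 CPM. Both are genes of the rule, so the order of selected cells and others follows from the selection. The others were not uniform. Acan was at 380 CPM in the 440 with Acan alone at 3 or more UMIs, and Col11a1 at 465 CPM in the 792 with Col11a1 alone. A selected cell held a median of 10 UMIs of Acan (3 to 144) and 12 of Col11a1 (3 to 137). The other fibroblasts included 112 barcodes with 5 or more Col2a1 UMIs, and without them Acan was at 63.8 and Col11a1 at 117 CPM.

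Acan lies on chromosome 7 from 79053483 to 79115099 (+ strand) and Col11a1 on chromosome 3 from 114030540 to 114220718 (+) of GRCm38, in the GENCODE vM21 annotation. Fmod lies on chromosome 1 from 134037254 to 134048277 (+), Tnmd on chromosome X from 133850980 to 133865577 (+), C1qtnf3 on chromosome 15 from 10952332 to 10980150 (+) and Scx on chromosome 15 from 76457452 to 76459458 (+). The promoters of Acan and of 3 of the genes with high ratios in these cells are shown because their transcripts occurred in the same cells. They are the 250 bases before the start of each gene in RefSeq on GRCm38.p6, which for Acan and Tnmd differs from the GENCODE start above, 5' to 3', with capitals for the E-box CANNTG and for the SOX-type letters ACAAT and ACAAAG on either strand.
Acan promoter, chr7:79052976-79053225, + strand: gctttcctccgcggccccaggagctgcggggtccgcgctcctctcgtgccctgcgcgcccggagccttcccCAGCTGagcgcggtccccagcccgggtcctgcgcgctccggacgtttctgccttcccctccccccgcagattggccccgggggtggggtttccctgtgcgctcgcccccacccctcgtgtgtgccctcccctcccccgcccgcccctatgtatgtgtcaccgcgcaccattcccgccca
Fmod promoter, chr1:134037004-134037253, + strand: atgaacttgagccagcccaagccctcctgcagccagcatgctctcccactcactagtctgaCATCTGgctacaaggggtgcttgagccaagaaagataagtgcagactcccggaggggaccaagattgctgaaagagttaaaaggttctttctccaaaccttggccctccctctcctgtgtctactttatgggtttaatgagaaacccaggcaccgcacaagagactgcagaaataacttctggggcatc
Tnmd promoter, chrX:133850758-133851007, + strand: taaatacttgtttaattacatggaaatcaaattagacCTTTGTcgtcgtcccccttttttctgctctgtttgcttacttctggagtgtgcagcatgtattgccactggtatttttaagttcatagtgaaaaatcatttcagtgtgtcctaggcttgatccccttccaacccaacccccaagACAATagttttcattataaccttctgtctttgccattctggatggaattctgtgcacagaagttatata
C1qtnf3 promoter, chr15:10952082-10952331, + strand: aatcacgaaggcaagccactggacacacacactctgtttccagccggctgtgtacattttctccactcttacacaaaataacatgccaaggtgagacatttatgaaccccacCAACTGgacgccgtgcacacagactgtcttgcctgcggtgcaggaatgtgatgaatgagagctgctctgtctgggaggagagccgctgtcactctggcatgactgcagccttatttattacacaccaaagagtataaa
The Acan, Fmod and C1qtnf3 windows each held 1 E-box and no SOX-type match, and the Tnmd window held 2 SOX-type matches and no E-box. Over all promoters in the table, CANNTG was found in 72.3% of 32851 windows of 300 bases, which run 50 bases past the start, and in 17 of 26 windows (65.4%) of 21 of the genes with the highest ratios below. ACAAT was found in 31.0% of all windows and 11.5% of the 26, ACAAAG in 18.7% and 11.5%, and the TATA letters TATAAA in 13.6% and 15.4%. A match of these short letters is no binding site by itself.

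The comparison within the 1-week library asked how the Acan and Col11a1 fibroblasts differed from the 4381 other fibroblasts of the same tissue pool and the same library. Members were chosen by their own transcripts, so these ratios are a description, and genes that go with Acan and Col11a1 in any cell enter through the choice. Of 13873 genes with at least 50 UMIs, 197 (1.42%) had a CPM ratio of 2 or more and 889 (6.41%) a ratio of 0.5 or less, and the median log2 ratio was -0.08. Set against the 4269 others without the Col2a1-high barcodes, 227 (1.64%) of 13843 genes were at least 2-fold higher and 892 (6.44%) at least 2-fold lower. By list median, tendon genes and thrombospondins stood highest among the lists against all other fibroblasts, and lining and progenitor genes lowest.

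**Figure D2:**
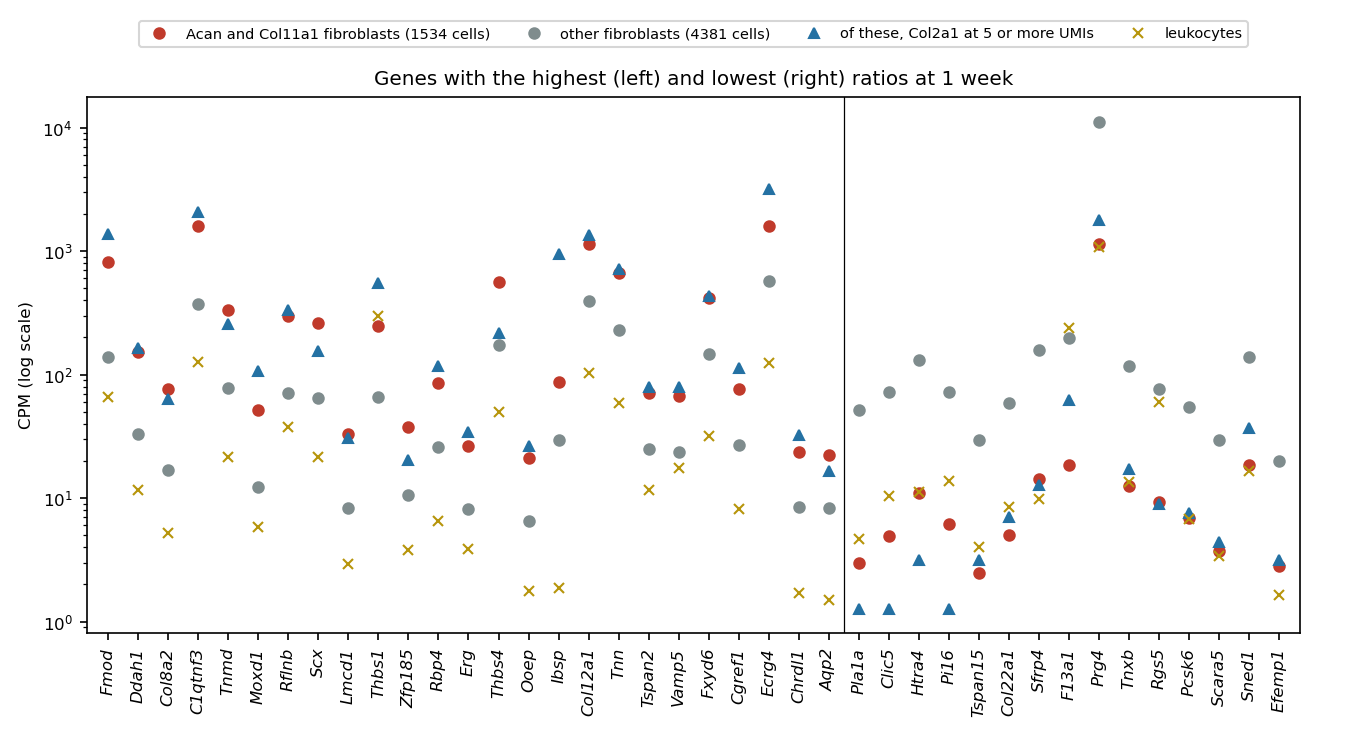
CPM on a log axis of the 25 genes with the highest and the 15 with the lowest ratios between the Acan and Col11a1 fibroblasts (red) and the other fibroblasts (grey) at 1 week, outside the genes of the rule. Triangles are the 112 other barcodes with at least 5 Col2a1 UMIs and crosses the leukocytes; Fmod stands at 818 against 138 CPM, and Prg4 at 1150 CPM lies at its leukocyte level of 1079.

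Among tendon and ligament genes, Tnmd was at 334 CPM in the selected fibroblasts and 78.3 in the others, a ratio of 4.27 (4.13 to 4.41), and at 21.4 in leukocytes. Scx, the transcription factor of tendon progenitors, was at 261 against 65.0 CPM, 4.01-fold higher (3.86 to 4.16). After thinning to 5000 UMIs, which left out 7 of the 1534 cells, 324 of the others and 547 of 2743 leukocytes, Scx was found in 58.0% of the selected cells, 19.1% of the others and 3.73% of leukocytes. Tnmd was found in 35.0%, 13.3% and 3.19%. At least 1 UMI of Tnmd or Scx was found in 71.0% (68.6 to 73.3%) of the selected cells, and both in 22.1%, against 29.0% and 3.40% of the others. The tendon transcripts were thus spread over most of the selected cells, and a part of them held both.

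Of 18 measured genes of the tendon and fibrocartilage list, 11 were at least 2-fold higher and 2 at least 2-fold lower, and the list median was 1.21 on the log2 scale, against -0.08 for all genes. Kera, which codes for keratocan, a small proteoglycan of cornea and tendon, was at 66.4 against 30.0 CPM, and Mkx, a tendon transcription factor, at 8.06 against 3.50 CPM. Cilp2, a cartilage intermediate layer protein, was at 18.7 against 4.47 CPM, and Angptl7, an angiopoietin-like secreted protein, at 8.19 against 2.18 CPM. Clec3b, which codes for tetranectin, went the other way, with 171 CPM against 467. The 5 tenocyte markers Scx, Tnmd, Mkx, Kera and Fmod summed to 1487 CPM in the selected cells, 315 in the others and 116 in leukocytes, and 5 of 5 were at least 2-fold higher. In the Col2a1-high barcodes they summed to 1819 CPM, of which Fmod made up 1370, so the sum did not set the selected cells apart from those barcodes. Scx and Tnmd were lower in those barcodes than in the selected cells, at 155 and 256 CPM.

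Among matrix proteoglycans, Fmod had the highest ratio of all eligible genes, with 818 against 138 CPM, 5.91-fold higher (5.77 to 6.05). It was found in 70.8% of the thinned selected cells, 18.8% of the others and 8.70% of leukocytes, and the Col2a1-high barcodes were higher still at 1370 CPM. Within the selected cells Fmod ran from 0 CPM at the 10th percentile over a median of 538 to 2206 at the 90th. Tnmd was more unevenly spread, with a median of 0, a 75th percentile of 341 and a 90th of 1201 CPM. Of 14 small leucine-rich proteoglycan genes, 3 were at least 2-fold higher and 0 lower, with a median log2 ratio of 0.59. C1qtnf3 was at 1592 against 369 CPM, 4.31-fold higher (4.25 to 4.38), and found in 86.6%, 41.3% and 17.1% of selected cells, others and leukocytes. Tnn was at 661 against 231 CPM, 2.86-fold higher (2.80 to 2.92), and found in 84.0%, 45.1% and 9.52%. Both are markers given with the label of these cells, so their excess is not independent of how the group was proposed.

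The 25 highest ratios ran from 5.91 for Fmod to 2.69 for the water channel gene Aqp2, and the genes outside the groups above and below had varied roles. Ddah1, an enzyme that breaks down inhibitors of nitric oxide synthase, was at 154 against 33.0 CPM, 4.66-fold higher. Rflnb, which codes for an actin and filamin binding protein, had a ratio of 4.24, and Moxd1, a monooxygenase-like protein, stood at 52.1 CPM beside 12.2. Erg, a transcription factor of endothelium and of joint cartilage, was at 26.5 against 8.09 CPM, and Chrdl1, a secreted BMP antagonist, at 23.4 against 8.49. Ecrg4 was at 1601 against 571 CPM and Fxyd6, a regulator of the sodium pump, at 413 against 146. Leukocytes were below the selected cells for each of these 25 genes except Thbs1. Endothelial cells were above the selected cells for Moxd1 (104 CPM), Erg (131), Tspan2 (90.3 against 71.1) and Vamp5 (165 against 67.4), and below for the rest.

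Thrombospondins, secreted matrix glycoproteins that bind cells and collagen, were high as a family, with 3 of 5 measured genes at least 2-fold higher, 0 lower and a median log2 ratio of 1.22. Thbs4, the thrombospondin of tendon, was at 557 against 173 CPM, 3.22-fold higher (3.15 to 3.30). In the Col2a1-high barcodes Thbs4 was lower, at 216 CPM, but Thbs1 was higher, at 549.8 CPM, and the whole list summed to 5038 CPM against 3875 in the selected cells. Thbs2 was at 1028 against 442 CPM. Thbs1 had 248 CPM in the selected cells and 65.4 in the others, 3.79-fold higher (3.65 to 3.93), but leukocytes held more of it, at 299 CPM. Comp, the cartilage oligomeric matrix protein found in cartilage and tendon, was at 1786 against 1034 CPM, a ratio of 1.73.

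Most collagen genes stood higher by less than 2-fold. Col1a1, the main collagen of tendon, bone and scar, was at 21714 against 11302 CPM, a ratio of 1.92, and 0 of 7 fibrillar collagen genes outside the rule passed 2-fold, with a median log2 ratio of 0.51. Against the fibroblasts with no UMI of Acan or Col11a1 the Col1a1 ratio was 2.79 and the median 1.17, and without the Col2a1-high barcodes 1 of 7 passed 2-fold. Col12a1, a collagen on the surface of type I fibrils, was at 1144 against 392 CPM, a ratio of 2.92, and Col8a2, a short-chain collagen, at 76.7 against 16.8 CPM, a ratio of 4.56. Among 17 other collagen genes 3 were at least 2-fold higher and 4 lower, and basement membrane Col4a1 was at 59.6 against 219 CPM. Of 32 collagen processing genes, 1 was 2-fold higher and 0 lower, with a median log2 ratio of 0.32. Of 26 genes of protein folding and secretion in the endoplasmic reticulum, 0 passed 2-fold in either direction.

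The cartilage genes outside the rule depended on the comparison cells. Of 25 measured cartilage matrix genes, 3 were at least 2-fold higher and 5 at least 2-fold lower against all other fibroblasts, with a median log2 ratio of 0.13. Without the 112 Col2a1-high barcodes among the others, 16 of 24 were higher and 1 lower, and the median was 1.67. Col9a1, a chain of cartilage collagen type IX, shows the size of these levels: 15.4 CPM in the selected cells, 18.2 in all others, 3.51 in the others without Col2a1-high barcodes, 636 in the Col2a1-high barcodes and 1.73 in leukocytes. The selected cells were thus below all others, above the others without the Col2a1-high barcodes, and far below the Col2a1-high barcodes. Cnmd (chondromodulin) was at 5.63 CPM against 672 in the Col2a1-high barcodes, Ucma, a matrix protein of growth plate cartilage, at 9.90 against 567, Hapln1, the link protein of aggrecan, at 36.4 against 559, and Snorc, a chondrocyte membrane proteoglycan, at 0.0987 against 159. Of 10 measured chondrocyte markers outside the rule, 0 were at least 2-fold higher and 4 lower against all others, while 8 of 9 were higher and 0 lower without the Col2a1-high barcodes. They summed to 250 CPM in the selected cells, 212 in all others, 103 in the others without Col2a1-high barcodes and 4765 in the Col2a1-high barcodes.

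Transcripts per Col2a1 UMI in the same set of cells give another view of these levels. The selected cells held 61.9 Acan, 78.7 Col11a1 and 13.5 Sox9 UMIs per UMI of Col2a1, although the rule used Acan, Col11a1 and Col2a1 themselves. The Col2a1-high barcodes held 0.249, 0.356 and 0.0413. In leukocytes the ratios were 9.55, 10.4 and 3.21. The order of these values for Acan and Col11a1 follows from the selection and is no finding. The same holds for Sox9 between the selected cells and the Col2a1-high barcodes, because the rule set their Col2a1 apart.

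Sox9, the master transcription factor of cartilage, was at 154 CPM in the selected fibroblasts, 90.4 in the others, 279 in the Col2a1-high barcodes and 17.7 in leukocytes. Its ratio was 1.71 against all others and 2.30 against fibroblasts with no UMI of Acan or Col11a1. Of 28 chondrogenic transcription factor and regulator genes, 0 were at least 2-fold higher and 2 lower, and the median log2 ratio was -0.05, while 2 were higher without the Col2a1-high barcodes. Sox5, a partner of SOX9, was at 30.5 against 82.5 CPM, while Sox6, another partner, was at 14.4 against 7.23, and Sox11 at 3.95 against 13.6. These partners and relatives of SOX9 thus stood on both sides of the other fibroblasts.

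Bone genes were mixed. Of 22 osteoblast and mineralisation genes, 2 were at least 2-fold higher and 4 lower, with a median log2 ratio of 0.21. Runx2, the transcription factor that commits cells to bone, was at 22.8 against 26.9 CPM, and Sp7, which acts after it, at 1.02 against 0.280. Ibsp, which codes for bone sialoprotein, was at 87.0 against 29.6 CPM, a ratio of 2.94 (2.78 to 3.12). This rested on few cells: 130 of 1534 (8.47%) had a UMI, 20 cells held 77.4% of the UMIs, and 1 cell held 347. With every cell weighted equally, the log2 ratio of Ibsp was -0.19 against all others. Without the Col2a1-high barcodes, which held Ibsp at 944 CPM, the ratio was 11.2 (10.2 to 12.3).

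Some activated and contractile fibroblast genes were at least 2-fold higher. Of 31 genes of activated fibroblast matrix, 8 were at least 2-fold higher and 0 lower, with a median log2 ratio of 0.60. Itgbl1, an integrin beta-like secreted protein, was at 256 against 105 CPM, Tnc (tenascin-C) at 434 against 217, Postn (periostin) at 3361 against 1974 and Cthrc1, a secreted protein of injured tissue, at 2071 against 1123. Acta2, the smooth muscle actin of myofibroblasts, was at 357 against 161 CPM, a ratio of 2.22, and Tagln and Myl9, which code for contractile proteins, were at 179 against 66.7 and at 135 against 50.6 CPM. At least 2 Acta2 UMIs of 5000 were found in 26.1% (23.9 to 28.3%) of the selected cells, 9.66% of the others and 2.50% of leukocytes, where Acta2 was at 89.5 CPM. Of 24 contractile genes 4 were at least 2-fold higher and 1 lower, the lower one being the muscle filament gene Des at 2.90 against 14.2 CPM. The mural marker genes, which the gate used in part, summed to 14.4 CPM against 92.5 in the others.

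The genes of the synovial lining were low. Of 14 lining fibroblast genes 0 were at least 2-fold higher and 11 at least 2-fold lower, with a median log2 ratio of -2.50. Prg4 stood at 1150 CPM beside 11166 in the others, 9.71-fold lower (9.61 to 9.82). The former level was close to 1079 CPM in leukocytes and below 1527 in endothelial cells. In the selected cells 20 cells held 52.8% of the Prg4 UMIs. Clic5, a chloride channel family protein, stood at 4.94 CPM beside 72.0, 14.6-fold lower, and Htra4, a secreted serine protease, was 12.0-fold lower from 132 CPM in the others. Has1, a hyaluronan synthase, was at 30.4 against 168 CPM.

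Progenitor and sublining genes were low as well. Of 14 progenitor fibroblast genes 0 were at least 2-fold higher and 11 lower, with a median log2 ratio of -1.88, and of 20 sublining genes 2 were higher and 12 lower. Pi16, a peptidase inhibitor of universal progenitor fibroblasts, stood at 6.12 CPM beside 72.6, 11.9-fold lower (10.2 to 13.8). Pla1a, a phospholipase, had the lowest ratio of all, 2.96 against 51.3 CPM, 17.3-fold lower (14.1 to 21.6). The leukocyte levels were 4.65 CPM for Pla1a, 13.7 for Pi16 and 10.5 for Clic5, all above the selected cells, whose levels of these genes were therefore not above background. Sfrp4, a secreted Wnt antagonist, was at 14.2 against 157 CPM. Of 11 adipocyte and lipid genes 0 were higher and 6 lower.

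Inflammatory genes were low in the selected cells. Of 25 chemokine and inflammatory mediator genes 0 were at least 2-fold higher and 13 lower. Il6, an inflammatory cytokine, was at 7.86 against 29.1 CPM, Cxcl5, a neutrophil chemokine, at 24.9 against 95.4 and Csf1, the growth factor of macrophages, at 26.6 against 55.2. Of 16 interferon response genes 0 were higher and 9 lower, with a median of -1.07, and Ifit1, an interferon-induced antiviral protein, was at 16.2 against 55.1 CPM. Leukocyte markers summed to 185 CPM in the selected cells, 255 in the others and 25462 in the leukocytes, endothelial markers to 13.8 and 17.0, Schwann cell markers to 7.63 and 42.3 and erythroid markers to 31.4 and 135 CPM in the selected cells and the others. The part of these in the low ratios was not tested.

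The signalling and degradation lists had median log2 ratios from -0.28 to -0.01, against -0.08 for all genes. Over all genes 1.42% were at least 2-fold higher and 6.41% lower. The BMP, Wnt, hedgehog, IGF and degradation lists held larger shares of lower genes than that, in the IGF list through 1 gene. Of 25 TGF-beta pathway genes 0 were at least 2-fold higher and 1 lower, of 32 BMP genes 1 and 4, of 34 Wnt genes 1 and 7, of 22 hedgehog, PTHrP and FGF genes 0 and 5, and of 14 IGF and IGF-binding genes 0 and 1. Igfbp5, an IGF-binding protein, was at 260 against 721 CPM. Of 29 genes of aggrecan and collagen degradation 1 was higher and 7 lower. Mmp13, the main collagenase of cartilage, was at 250 against 276 CPM, a ratio of 0.908, and Adamts5, an aggrecan-cleaving protease, had a ratio of 0.419 to the 95.6 CPM of the others, while Mmp14, a membrane collagenase, was at 1183 against 803. At least 2 Mmp13 UMIs of 5000 were found in 10.2% of the selected cells, 11.3% of the others and 1.46% of leukocytes. Dividing cells, with at least 2 UMIs of cell division genes of 5000, were 10.0% (8.56 to 11.6%) of the selected cells and 9.32% (8.44 to 10.3%) of the others, and Mki67, a marker of dividing cells, was at 41.0 against 35.2 CPM. H19, an imprinted growth-related RNA, was at 1074 against 457 CPM.

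**Figure D3:**
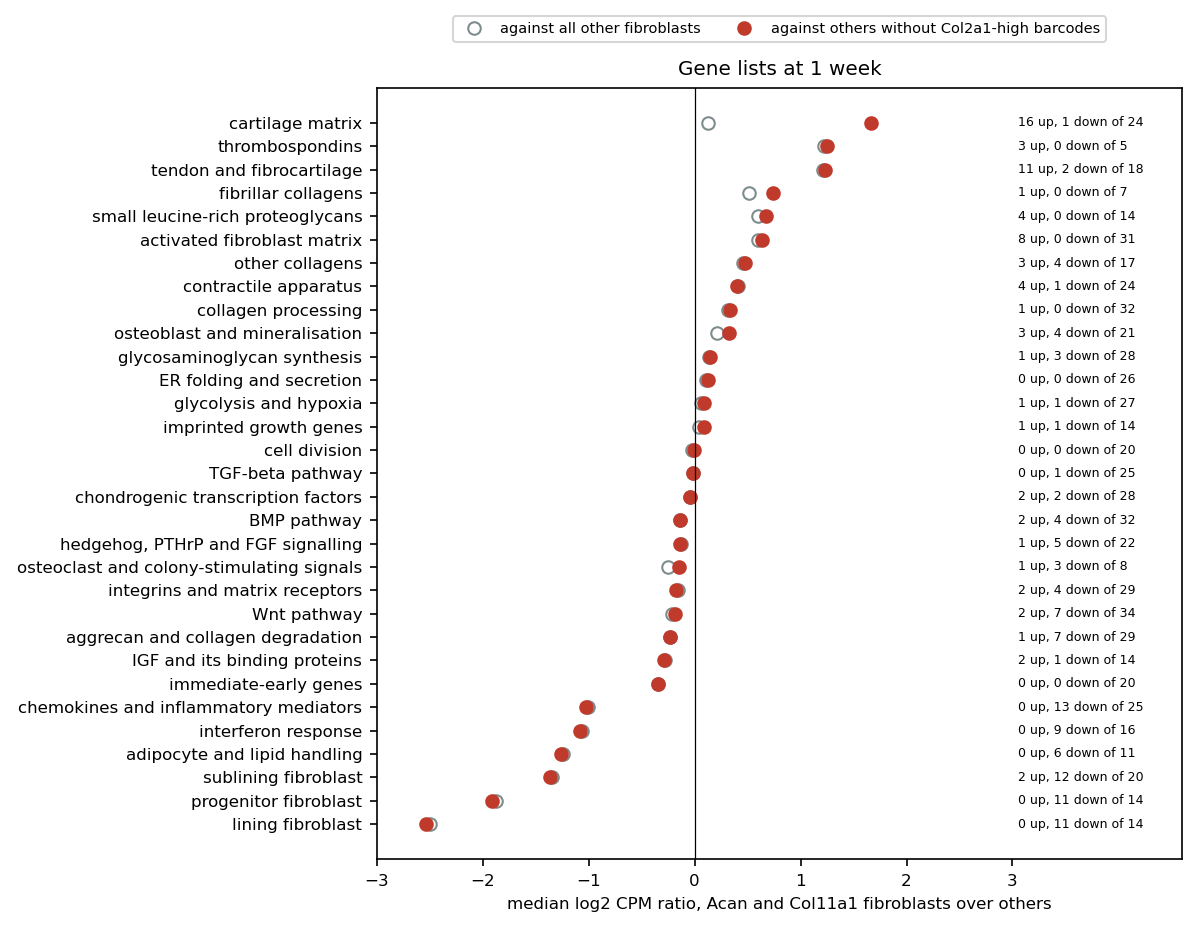
Median log2 CPM ratio over the measured genes of each gene list, Acan and Col11a1 fibroblasts over the other fibroblasts at 1 week, with open circles for all others and filled circles without the Col2a1-high barcodes. The text at the right gives, for the latter, how many genes were at least 2-fold higher (up) and lower (down); the tendon and fibrocartilage list stands at 1.21 and the lining list at -2.50 against all others.

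The same genes followed the number of Acan and Col11a1 UMIs in steps, in sets of cells cut by these UMIs. Fmod was at 32.8 CPM in 1898 fibroblasts with no UMI of either gene and 63.8 in 1139 with both below 3. It was at 253 in 440 with Acan alone at 3 or more, 239 in 792 with Col11a1 alone and 818 in the selected cells. Scx ran through 32.9, 47.1, 127, 107 and 261 CPM over the same sets. Tnmd separated the sets that had 1 gene alone, with 55.9 CPM where Acan alone was at 3 or more and 201 where Col11a1 alone was, against 334 in the selected cells. Prg4 ran the other way, from 20700 CPM with no UMI of either over 9301, 1693 and 973 to 1150 in the selected cells. Median depth ran in the same order, with 13794, 14510, 15958, 16199 and 18596 UMIs, and its part in the steps was not tested.

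**Figure D4:**
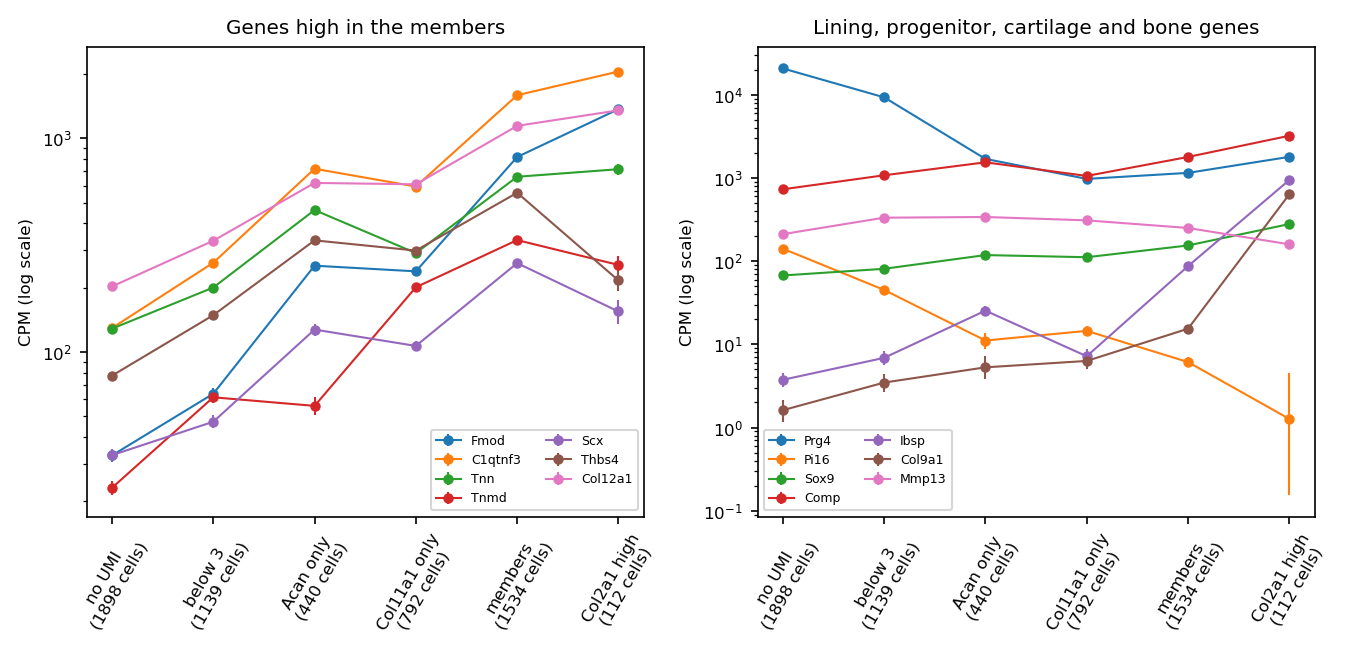
CPM (log axis, bars are exact 95% intervals) of 14 genes in 1-week fibroblasts grouped by UMIs of Acan and Col11a1, where members are the Acan and Col11a1 fibroblasts. Fmod steps from 32.8 CPM with no UMI of either gene to 818 in the members, and Prg4 from 20700 to 1150.

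Near the threshold, 257 cells (16.8%) had Acan or Col11a1 at exactly 3 UMIs, and 323 fibroblasts lay just outside, with one of the genes at 2. Fmod was at 385 CPM inside and 273 outside, C1qtnf3 at 868 and 723, Tnn at 451 and 382, and Scx at 168 and 122 CPM. On the other edge, 88 fibroblasts met the Acan and Col11a1 thresholds with 5 or more Col2a1 UMIs, with Fmod at 1578 and C1qtnf3 at 2360 CPM. Across the Acan and Col11a1 edge these genes differed less than between the selected cells and the other fibroblasts. On the Col2a1 side, Col9a1, Cnmd and Snorc stood far above the selected cells in the levels given earlier. Those levels are of all 112 Col2a1-high barcodes, of which these 88 are a part.

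Genes most alike in pattern were ranked by Spearman correlation with the sum of Acan and Col11a1 over 5584 thinned 1-week fibroblasts and 7810 genes found in at least 5% of them. The highest values were 0.65 for Col1a1, 0.611 for Col1a2, 0.601 for Fmod, 0.596 for Ecrg4, which codes for a small secreted peptide precursor, 0.593 for Col12a1, 0.581 for C1qtnf3 and 0.493 for Tnn. Scx had 0.416. The lowest were -0.495 for Ly6a, a surface protein of progenitor fibroblasts, -0.480 for Fth1, the ferritin heavy chain, and -0.436 for Ly6c1. All cells share 1 library, so these values describe it and carry no p-value.

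Placed by all other variable genes, with those of the rule left out, the cells lay near each other. Among the 15 nearest neighbours of a selected cell in 30 principal components, a mean of 65.5% were selected cells, against 13.5% for the other fibroblasts and a base share of 25.9%. In 1096 cells (71.4%) at least 50% of the neighbours were selected cells, against 322 (7.35%) of the others. Genes that follow Acan and Col11a1 took part in this placing.

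Clustering the 1-week fibroblasts without the genes of the rule gave 19 clusters, and the cells occurred in 15 of them. Clusters 1 and 2 held 777 cells (50.7%), and 7 clusters with at least 50 of them held 1417 (92.4%). In cluster 1, led by Thbs1, Ddah1, Rflnb and Fmod, 522 of 606 cells (86.1%) were selected cells, and in cluster 2, led by Tnmd, Cilp2, Aqp5 and Matn4, 255 of 387 (65.9%). In the other 5 of these clusters the share was 20.3 to 39.3%. A cluster led by Snorc and Col2a1 held none, which the limit on Col2a1 in the rule largely set in advance. No cluster is given a cell type name, since all were drawn from the genes described.

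The cells of the 7 clusters shared C1qtnf3, at 808 to 2335 CPM, and differed in the other genes. Fmod was at 1117, 1115 and 1178 CPM in clusters 1 to 3, and at 240 to 691 in clusters 4 to 7. Tnmd was at 777 CPM in cluster 2, 466 in cluster 3, 378 in cluster 1 and 311 in cluster 4 but at 42.6, 23.2 and 68.7 in clusters 5, 6 and 7, while Scx stayed between 81.5 and 357 CPM in all 7. Acta2 was at 510 CPM in cluster 1 and 532 in cluster 5 and 60.2 in cluster 4 and 97.9 in cluster 3. Cluster 1 was thus among the higher ones for Fmod, Scx and Acta2 alike. Cluster 3 held Clec3b at 648 CPM, and cluster 4 held Eln, which codes for elastin, at 262 CPM. Cluster 5 held the dividing cells, with Mki67 at 340 CPM. Cluster 6 was high in Cxcl5 at 135 CPM, Ndufa4l2, a hypoxia-induced mitochondrial gene, at 706 and Thbs4 at 1076. Cluster 7 was high in the Notch target Hey1 at 116 CPM and in Mmp13 at 958, against 88.5 to 234 in the other 6. Prg4 was at 2260 and 2955 CPM in clusters 5 and 6, above the leukocyte level, and at 179 to 438 in the other 5.

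**Figure D5:**
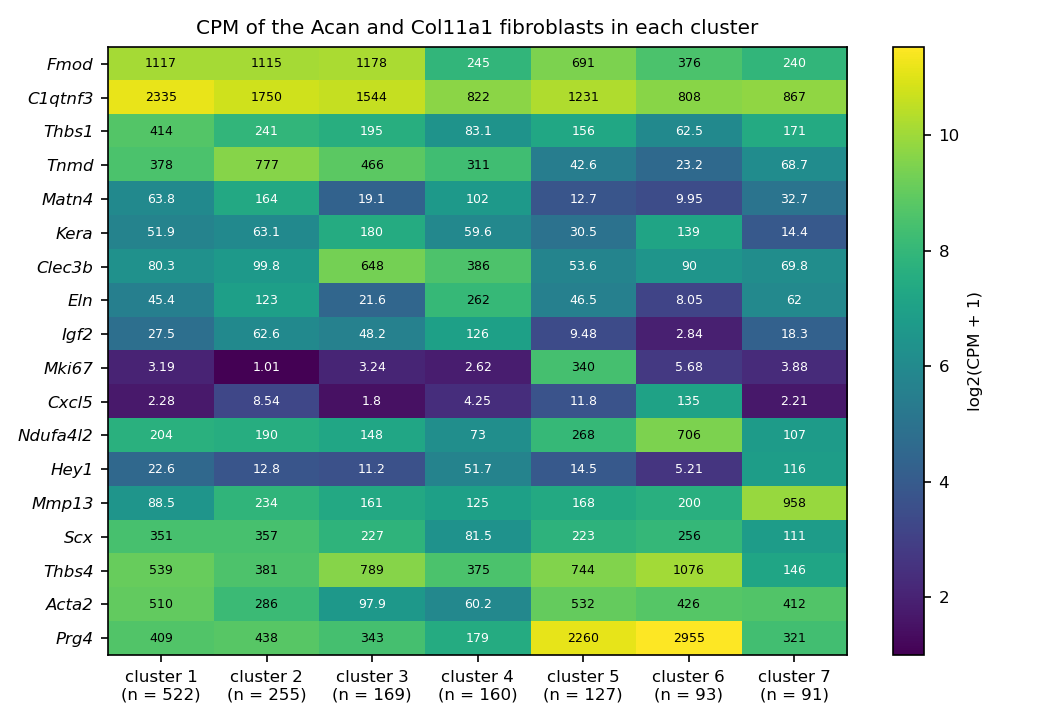
CPM of 18 genes (rows) in the Acan and Col11a1 fibroblasts of the 7 clusters that held at least 50 of them at 1 week (columns, n is the number of these cells), with the colour on a log2(CPM + 1) scale. Tnmd is highest in cluster 2 at 777 CPM, Mki67 in cluster 5 at 340 CPM and Mmp13 in cluster 7 at 958 CPM.

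At 2 months 30 cells met the rule among 5779 fibroblasts, with a median of 19227 UMIs and 752235 in all. Of 13871 genes compared with the other 2-month fibroblasts 2130 (15.4%) were at least 2-fold higher and 1140 (8.22%) lower, a wider background than at 1 week with fewer cells. Of the 25 genes named for high ratios at 1 week 21 were at least 2-fold higher here, and 15 of 15 of those named as low were at least 2-fold lower. The selection by Acan and Col11a1 was the same, so this is no separate support.

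Fmod was at 1742 CPM in these cells and 109 in the other 2-month fibroblasts, a ratio of 15.9, with a UMI in 30 of 30 cells. Thbs4 was at 1718 against 224 CPM, a ratio of 7.67 (7.25 to 8.11), and found in 26 cells. Tnn was at 213 against 24.5 CPM and found in 27. C1qtnf3, at 379 against 35.5 CPM, was found in 15 cells and Scx, at 162 against 30.5 CPM, in 17. Tnmd was at 441 against 39.5 CPM but found in only 11 of the 30. The other 4 of the 25 genes were below 2-fold, namely Thbs1 at 1.59, Rbp4 at 1.13, Ooep, with 1 UMI, at 1.86 (0.0466 to 10.7) and Cgref1 at 1.67. Aqp2, a water channel, had a ratio of 48.2, but 1 cell held 83 of its 135 UMIs. Comp was at 4208 against 1364 CPM, Prg4 at 11003 against 44339, and Col2a1 and Mki67 had 0 UMIs. For Prg4, 1 cell held 4846 of the 8277 UMIs, and the median of the 30 cells was 1636 CPM. These levels are of 30 cells of 1 pool, and whether they descend from the cells seen at 1 week was not tested.

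Doublets, called by comparison with simulated pairs and kept, were 11 (0.717%) of the selected 1-week cells, 45 (1.03%) of the others and 0 of the 30 cells at 2 months.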

How the data were processed

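The deposited files were 10x matrices with raw UMI counts per gene and barcode, without normalisation by the authors. Build mm10 and Cell Ranger 6.0.1 are named in the submitters' processing notes, and versions 5.0.0, 5.0.0 and 5.0.1 stand per the file headers of the control, 1-week and 2-month libraries. The headers and notes differ. The cells, the gene lists and the rule for named genes were chosen with earlier results of these data known.

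UMIs were summed over cells and scaled to CPM. A gene was compared if the sums held at least 50 UMIs, and called at a CPM ratio of 2 or more or 0.5 or less, with sums of 0 raised to 3 UMIs. Named are the 25 highest and 15 lowest ratios among genes with at least 200 UMIs and 20 CPM, outside the genes of the rule and mitochondrial, ribosomal, haemoglobin, sex-linked marker and unnamed genes. Also named are the 4 largest ratios of each list and the genes that define cell types. Postn, Cthrc1, Tnc, Mmp14, Igfbp5, Csf1 and a few other list members outside this rule were added after their values were seen. Intervals were Poisson, conditional binomial and Clopper-Pearson. Each group was 1 pooled library, so no model across groups was fitted. Cells were thinned to 5000 UMIs for shares (seed 1). Neighbours and Leiden clusters used 3000 variable genes and 30 components. Scrublet in Scanpy called 330, 528 and 435 doublets in the 3 libraries, which were kept. The ratio script was tested on simulated data. Tools were Python 3.11.15, numpy 2.4.6, scipy 1.17.1, pandas 2.3.3, scanpy 1.11.5, anndata 0.12.19, scikit-learn 1.9.0, igraph 0.11.9 and matplotlib 3.10.9.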

Additional observations from a re-analysis of the deposited data

How the results depend on the processing

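No paired analysis was possible because each group was 1 library, and no library could be left out in turn for the same reason. The 1-week share of 25.9% was 31.4% with at least 2 UMIs of each gene, 18.7% with at least 5 and 22.3% with Col2a1 at 0. It was 27.4% with the fibroblast gate at 1% and 10.4% with cells thinned to 5000 UMIs before the gate. The 2-month share of 0.519% was 0.900%, 0.225% and 0.0894% with at least 2, at least 5 and thinned cells. The control share was 0 under all 7 alternatives. The 197 genes at least 2-fold higher were 414 against others with no UMI of Acan or Col11a1, 530 with no minimum of UMIs and 127 with a minimum of 200. The 889 lower ones were 1927 and 494 under these last settings, which admit more or fewer genes by construction. The log2 ratio of Ibsp was -0.19 with every cell weighted equally. The nearest-neighbour share of 65.5% was 64.4 to 65.0% under 4 alternatives. At least 24 of the 25 genes with the highest ratios stayed at 2-fold or more, and 15 of 15 of the lowest at 0.5 or less, under all 17 alternatives for genes, of which 3 were chosen after seeing the data (others without Col2a1-high barcodes, cells with at least 5000 UMIs, shared barcodes left out). The cartilage matrix median ran from -0.57 to 1.67 and changed sign in 3 of the 17. With 30 cells at 2 months the UMI sums were small: Moxd1, with 2 UMIs there, had a ratio of 4.99 whose interval began at 0.59.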
